A study of Rattus norvegicus with 34 samples.

Results

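Matrix metalloproteinases (MMPs), the membrane-anchored ADAMs and the secreted ADAMTS proteases are zinc enzymes that cut matrix proteins and release proteins from the cell surface. They are made as inactive precursors. The tissue inhibitors of metalloproteinases (TIMPs) block their active site, and Reck is an inhibitor anchored to the cell membrane. In the heart these enzymes and inhibitors take part in the turnover of collagen and other matrix after an infarct, and their transcripts come from fibroblasts, muscle cells, endothelium and white blood cells.

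Members were the transcripts whose symbol in the array annotation begins with Mmp or Adam and a digit or with Adamts, together with Timp1 to Timp4 and Reck. The rule found 58 genes on 59 transcript clusters (the probe sets that the array reads as 1 transcript) of 29214 transcript clusters measured, of which 15310 carry the symbol of 1 gene. They comprise 4 TIMPs and Reck, 21 MMPs, 18 ADAMs, 11 ADAMTS proteases and 3 ADAMTS-like proteins, which lack a protease domain. Adamts3 had more than 1 transcript cluster and was taken from the brighter. Adam10, Adam12, Adam19 and Adamtsl2 had no transcript cluster under these symbols and were not analysed here.

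RNA came from the left ventricle (LV) and from peripheral blood mononuclear cells (PBMCs) of male Wistar rats, 2 months after the left coronary artery was tied or after a sham operation in which the suture was left loose. The LV arrays were from 6 sham-operated rats, 6 rats with a small infarct (S-MI), 6 with a moderate one (M-MI) and 5 with a large one (L-MI). PBMCs were profiled for 6 rats of the sham group and 5 of the L-MI group. The labels name no drug or genetic alteration for any group. From infarcted hearts only the part without visible scar was taken, and from sham-operated hearts the whole ventricle, so the infarct and the part of the ventricle sampled cannot be told apart. Values are log2 signals, on which a difference of 1 is a doubling, and levels are compared within a gene and a tissue only.

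Precision is limited by how many arrays each group had. In LV, markers of cardiomyocytes averaged between 12.86 and 13.03 on every array, and in PBMCs markers of T cells averaged between 11.67 and 11.92. Other cell markers were less even in PBMCs. The mean of 3 erythroid markers ran from 10.13 to 12.55 in sham and from 10.08 to 13.19 in L-MI. Macrophage markers averaged 9.16 in PBMC L-MI replicate 5 and 7.89 to 8.39 on the other PBMC arrays. In LV, replicates 4 and 6 of sham and 4 and 5 of S-MI stood apart on the first principal component, at -138 to -112. L-MI replicate 4 lay far out on the other side, at 165, and the remaining LV arrays lay at -52.0 to 64.8. The arrays that stood apart are below only those of sham and S-MI. L-MI replicate 4 was left out only in the runs that left out 1 array. The deposited description of L-MI replicate 1 speaks of compensated injury, unlike its title, in both tissues. Counts without the arrays that stood apart are given for the LV comparisons, and counts without L-MI replicate 1 for those that use it.

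In LV of rats with L-MI, 6 of the 58 members passed the test against sham, which asked for a change of 1.3-fold or more and for p not above 0.05 after Benjamini-Hochberg adjustment, in a limma model over all 23 LV arrays. Timp1, Timp2, Mmp2 and Mmp14 were upregulated, and Timp4 and Adam1a were downregulated. Of all transcript clusters 3.22% passed, with 2.08% upregulated and 1.14% downregulated. The median log2 fold change of the members was 0.08, beside -0.01 over all transcript clusters, and 44 of 58 lay above 0, as did 48.0% of all transcript clusters. Without the fold threshold 13 members passed, against 9.48% of all transcript clusters, and 11 of them were higher, against 4.57%. Without L-MI replicate 1 the number of members that passed was 5, and without the LV arrays that stood apart it was 8. In bulk tissue, a change in the number of cells of a type and a change of RNA per cell cannot be told apart.

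**Figure D1:**
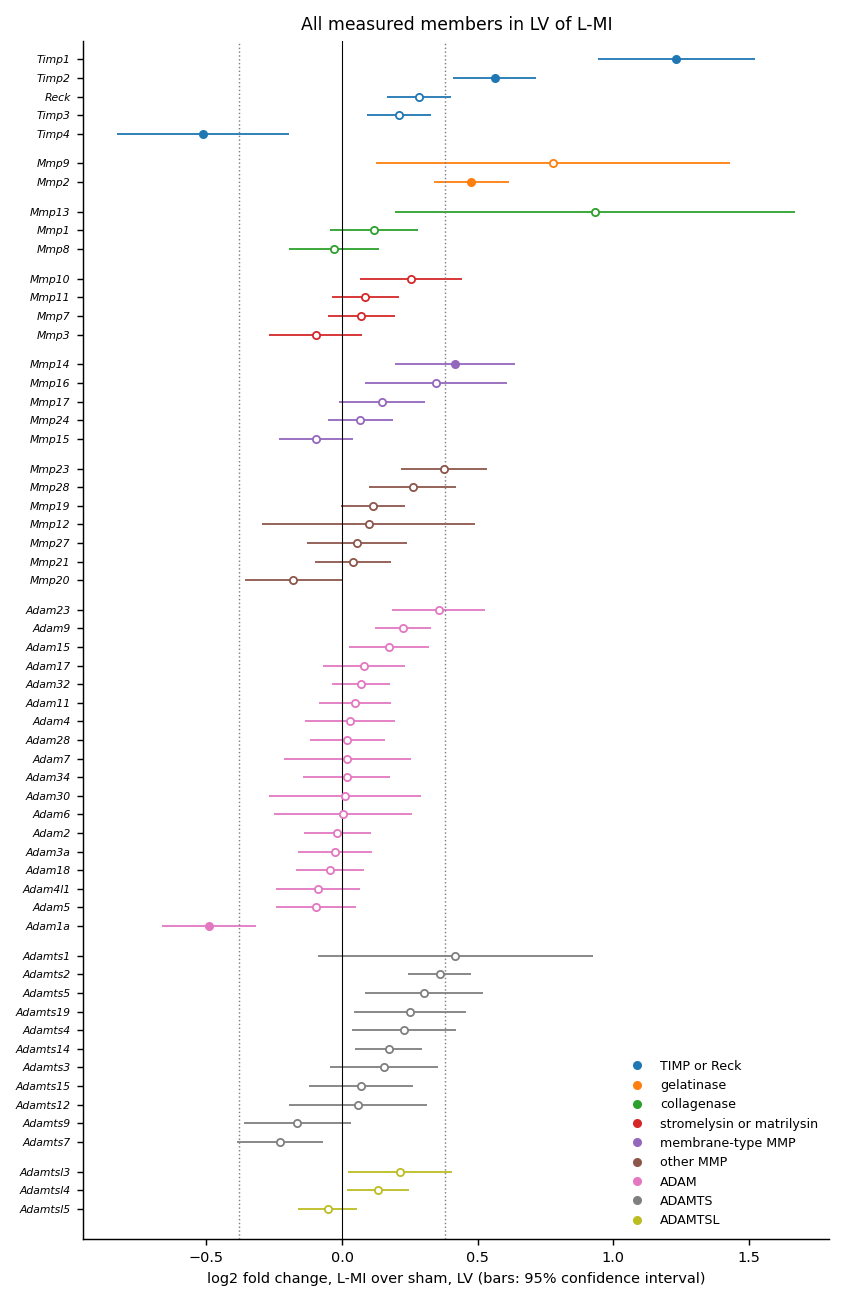
Log2 fold change of L-MI over sham in LV (x axis) for all 58 members, grouped by family; bars are 95% confidence intervals of the limma model, filled points passed the fold and adjusted p thresholds, and dotted lines mark the fold threshold of 1.3 (log2 0.379). Timp1 lies farthest to the right at 1.23, Timp4 and Adam1a lie farthest to the left, and the intervals of Mmp9 and Mmp13 are wide.

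Among the inhibitors, Timp1 showed the largest rise of all members in LV of L-MI. Timp1 is a secreted inhibitor made by many cells in response to injury. Its signal was 10.34, 9.98, 10.25, 10.52 and 10.53 in the 5 L-MI hearts, and 8.87 at the lowest, 9.07 at the median and 9.31 at the highest in sham. Every L-MI heart lay above all 18 other hearts. The log2 fold change was 1.23 ± 0.14 (SE), a fold of 2.35 (adjusted p = 6.54e-06).

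Timp2, which inhibits MMPs and also serves as the adaptor through which Mmp14 activates the Mmp2 precursor, rose by a fold of 1.48 (log2 0.56 ± 0.07, SE; adjusted p = 2.95e-05). The 5 L-MI hearts read 11.21, 10.90, 11.15, 11.22 and 11.38, and the sham hearts 10.47 to 10.76 with a median of 10.60. Again no heart of another group reached the lowest L-MI heart.

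Reck and Timp3 moved less. Reck was at 7.75, 7.53, 7.56, 7.71 and 7.65 in L-MI and at 7.25 to 7.41 in sham, with all L-MI hearts above the other 18. Its log2 difference of 0.28 ± 0.06 (SE) passed the adjusted p (0.00185) but not the fold threshold. Timp3, which is bound to the matrix and also inhibits ADAMs, differed by 0.21 ± 0.06 (SE; adjusted p = 0.0185), likewise below the fold threshold. Its lowest L-MI heart and its highest sham heart both read 10.93, and hearts with S-MI and M-MI reached 11.01 and 11.05.

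Timp4 was the inhibitor that fell in L-MI. Timp4 is known for its high level in the heart. Its signal was 9.12, 9.93, 8.96, 9.24 and 9.33 in the L-MI hearts, and in sham 9.44 at the lowest, 9.89 at the median and 10.13 at the highest. L-MI replicates 1, 3, 4 and 5 lay below every sham heart, whereas replicate 2 lay within the sham range. The fall was 0.51 ± 0.15 on the log2 scale (SE; Timp4 log2 fold change -0.51, fold 0.701; adjusted p = 0.0341). This call was the least stable of the 6. It was lost when any of sham replicates 1, 2, 4 or 5 or L-MI replicates 1, 3, 4 or 5 was left out, with adjusted p of up to 0.114 and a log2 fold change between -0.67 and -0.42, and it held without sham replicate 3 or 6 or L-MI replicate 2.

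**Figure D2:**
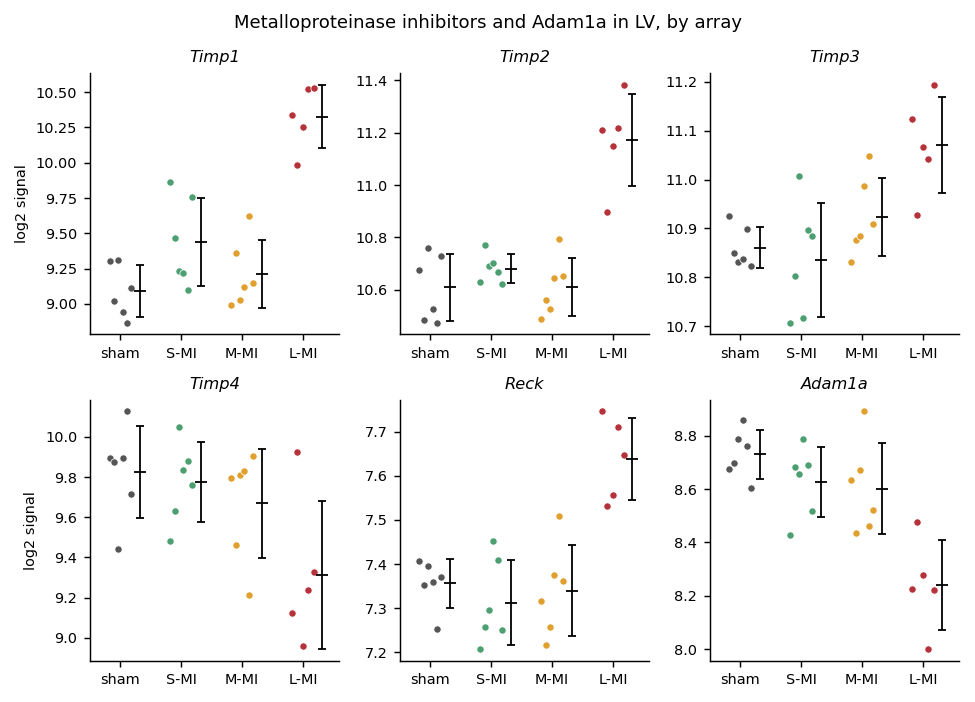
Log2 signal in LV (y axis, a separate range for each gene) of the 4 TIMPs, Reck and Adam1a in the sham, S-MI, M-MI and L-MI groups; each point is 1 heart, and the black bars are mean and SD. The L-MI hearts of Timp1, Timp2 and Reck lie above all other hearts, Timp4 has 1 L-MI heart at 9.93 within the sham range, and the L-MI hearts of Timp3 overlap the M-MI hearts.

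The sequences just upstream of the TIMP genes are shown because Timp1 and Timp2 rose in L-MI and Timp4 fell. They are bases -160 to -41 before the annotated start, on the gene's strand, from RefSeq (GRCr8), and capitals mark the GC box GGGCGG or its complement CCGCCC.
Timp1, chrX:3771163-3771282, minus strand: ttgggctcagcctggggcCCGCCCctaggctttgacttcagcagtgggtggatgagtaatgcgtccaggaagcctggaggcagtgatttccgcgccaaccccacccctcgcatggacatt
Timp2, chr10:104089255-104089374, minus strand: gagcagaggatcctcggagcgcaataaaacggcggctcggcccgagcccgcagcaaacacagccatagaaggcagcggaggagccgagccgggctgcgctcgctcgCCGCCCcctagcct
Timp3, chr7:19459599-19459718, minus strand: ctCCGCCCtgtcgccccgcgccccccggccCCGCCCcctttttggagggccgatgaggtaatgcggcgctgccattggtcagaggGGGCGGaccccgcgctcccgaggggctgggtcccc
Timp4, chr4:149985245-149985364, minus strand: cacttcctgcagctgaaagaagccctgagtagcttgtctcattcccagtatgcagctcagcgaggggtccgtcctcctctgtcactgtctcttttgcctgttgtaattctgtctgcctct
From 250 bases before to 50 after the start, Timp1, Timp2 and Timp3 hold the GC box and Timp4 does not, while 33.1% of all 33469 promoters hold it on either strand and 18 of the 38 members with a promoter entry do. A match is a description of letters only.

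Timp1, Timp3 and Timp4 lie, in the RefSeq annotation (GRCr8), within the genes of the synapsins Syn1, Syn3 and Syn2, proteins of nerve endings. The log2 fold changes of these hosts in LV of L-MI were 0.04 for Syn1, 0.05 for Syn3 and 0.07 for Syn2, and none passed the test (adjusted p = 0.475 or higher; chosen after their values were seen).

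Of the gelatinases, which cut denatured collagen and type IV collagen, Mmp2 was upregulated in L-MI. Mmp2 read 10.88, 10.55, 10.61, 10.65 and 10.89 in the L-MI hearts and had a median of 10.25 and a highest value of 10.33 in sham. All 5 lay above the 18 other hearts, and the fold was 1.39 (log2 0.48 ± 0.07, SE; adjusted p = 5.80e-05). Mmp14, the membrane-type enzyme that activates Mmp2 at the cell surface, rose by a fold of 1.33 (log2 0.42 ± 0.11, SE; adjusted p = 0.0135). It read 7.75, 7.55, 7.47, 7.76 and 8.01 in L-MI and 7.05 to 7.46 in sham, and 1 S-MI heart reached 7.93. The call of Mmp14 was lost without sham replicate 2 (log2 0.37, below the fold threshold) and without L-MI replicate 5 (log2 0.34, adjusted p = 0.0549). Of the other membrane-type MMPs, Mmp16 differed by 0.35 (adjusted p = 0.0943) and passed only without L-MI replicate 3 (0.42, adjusted p = 0.0484). L-MI replicate 5 read 5.99 for Mmp16 beside 5.12 to 5.51 in the other L-MI hearts. Without it the difference was 0.20 (adjusted p = 0.296). Mmp16 was also among the dimmest 30% of transcript clusters in LV. Mmp15, Mmp17 and Mmp24 lay between -0.10 and 0.15 and did not pass.

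Mmp23, a small MMP with an unusual transmembrane anchor, fell just short of the fold threshold. It read 7.36, 7.24, 7.22, 7.24 and 7.57 in L-MI against 6.79 to 7.05 in sham, and all L-MI hearts lay above the other 18. Its log2 difference of 0.376 ± 0.076 (SE; adjusted p = 0.00193) lay beside a threshold of 0.379, and it passed without any of sham replicates 1 to 4 or L-MI replicates 2, 3 or 4, at up to 0.40. Mmp28, chosen after its values were seen, differed by 0.26 (adjusted p = 0.0344), with L-MI replicates 1 and 2 within the sham range of 6.97 to 7.23.

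**Figure D3:**
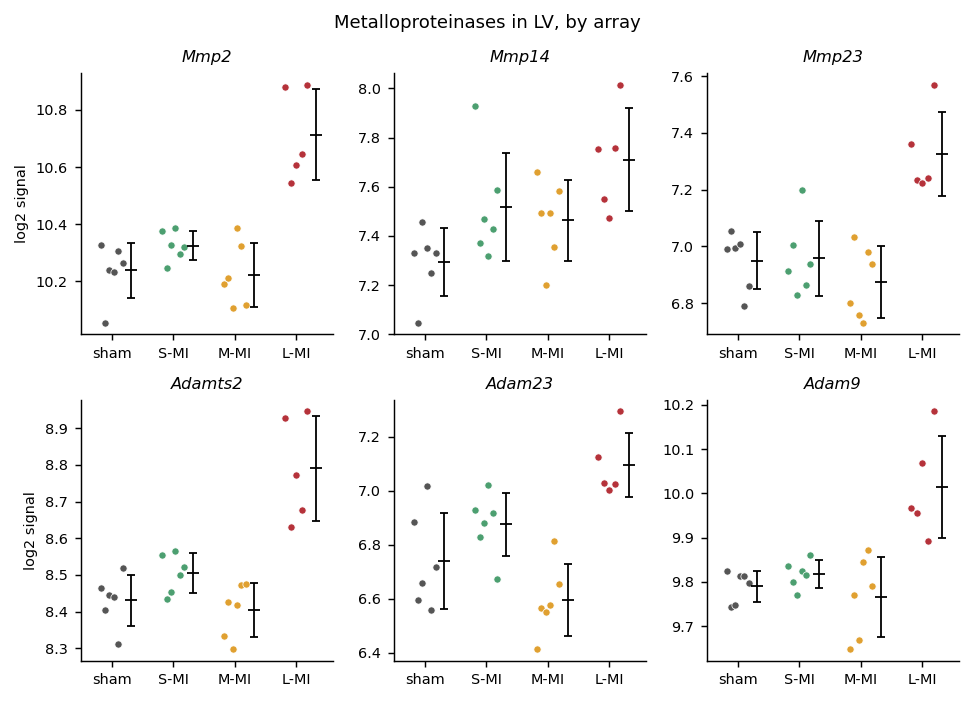
Log2 signal in LV (y axis, a separate range for each gene) of Mmp2, Mmp14, Mmp23, Adamts2, Adam23 and Adam9 by group; each point is 1 heart, and the black bars are mean and SD. The L-MI hearts of Mmp2, Mmp23, Adamts2 and Adam9 lie above all other hearts, while an S-MI heart of Mmp14 at 7.93 lies among the L-MI hearts.

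A group of secreted MMPs, with the collagenases and most stromelysins and matrilysins among the members, forms a run of genes on chromosome 8. Mmp11 (stromelysin-3) lies on chromosome 20. Mmp1b, not among the members measured, lies in the run between Mmp12 and Mmp3. The members of the run are, in order, Mmp13, Mmp12, Mmp3, Mmp1, Mmp10, Mmp8, Mmp27, Mmp20 and Mmp7. None of these 9 passed the test in any of the LV comparisons made. All 9 were among the dimmest 30% of transcript clusters in LV, where a signal may hold little but background. Their upstream sequences are shown because 7 of the 9 hold the same pair of motifs, and Mmp13, which was far higher in 1 L-MI heart, is among these. The stretches are bases -100 to -25 before the annotated start, from RefSeq (GRCr8), all on the plus strand, and capitals mark the AP-1 motif TGANTCA and the TATA box TATAAA or its complement TTTATA.
Mmp13, chr8:12782729-12782804: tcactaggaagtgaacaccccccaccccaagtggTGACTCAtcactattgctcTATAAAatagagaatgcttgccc
Mmp12, chr8:12866552-12866627: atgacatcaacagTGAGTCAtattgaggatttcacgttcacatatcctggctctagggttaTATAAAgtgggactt
Mmp3, chr8:12925181-12925256: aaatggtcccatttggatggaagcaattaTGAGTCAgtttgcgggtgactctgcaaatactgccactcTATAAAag
Mmp1, chr8:12943353-12943428: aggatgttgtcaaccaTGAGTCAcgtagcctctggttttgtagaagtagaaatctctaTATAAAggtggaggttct
Mmp10, chr8:12974607-12974682: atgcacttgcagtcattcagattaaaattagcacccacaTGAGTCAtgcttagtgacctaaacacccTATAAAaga
Mmp8, chr8:13008790-13008865: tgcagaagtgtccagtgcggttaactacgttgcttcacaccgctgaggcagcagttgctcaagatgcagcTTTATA
Mmp27, chr8:13030652-13030727: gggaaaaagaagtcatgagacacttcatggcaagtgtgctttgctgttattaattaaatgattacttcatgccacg
Mmp20, chr8:13074179-13074254: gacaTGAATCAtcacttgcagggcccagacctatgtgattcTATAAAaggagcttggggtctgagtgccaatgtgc
Mmp7, chr8:13132943-13133018: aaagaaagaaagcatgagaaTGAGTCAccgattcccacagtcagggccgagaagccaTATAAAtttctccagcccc
The AP-1 motif begins 61 to 96 bases before the start in 7 of the 9, all but Mmp8 and Mmp27, and Mmp1 holds a further copy 242 bases before it. The match in Mmp20, the one at 96 bases, reads TGAATCA, while the other matches shown read TGACTCA or TGAGTCA. Only 38 of the 58 members have a promoter entry, and Mmp9, Mmp2, Mmp14 and Mmp16 are among those without one. No other member with an entry holds TGANTCA, which is in 7.33% of all promoters of this length. Variants of these letters were not searched. The TATA box is in 8 of the 9, all but Mmp27, and in 14.2% of all promoters.

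Mmp13 (collagenase-3) and Mmp9 (gelatinase B) were far higher in a single heart. Mmp13 read 3.76, 4.38, 3.72, 4.30 and 7.03 in the L-MI hearts and 3.56 to 3.95 in sham. Mmp9, which lies on another chromosome, read 6.03, 6.40, 5.70, 6.36 and 8.75 in L-MI and 5.78 to 6.02 in sham. L-MI replicate 5 thus exceeded the highest of the other 22 LV arrays by 2.64 for Mmp13 and 2.35 for Mmp9 on the log2 scale, and replicates 2 and 4 lay above the sham range in both genes by less. The other 22 arrays of Mmp13 lay within the dimmest 30% of signals, so its log2 differences may be smaller than the change in transcript. Over the group, Mmp13 differed by 0.93 ± 0.36 (SE; adjusted p = 0.113) and Mmp9 by 0.78 ± 0.32 (SE; adjusted p = 0.141), so neither passed. Without L-MI replicate 5 the differences were 0.34 and 0.25, and without L-MI replicate 3 Mmp9 passed at 1.01 (adjusted p = 0.0484). Mmp8, the collagenase of neutrophils, differed by -0.03, Mmp12, the elastase of macrophages, by 0.10, and Mmp3 (stromelysin-1) by -0.10.

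Over all transcript clusters, 6 exceeded the other 22 LV arrays by at least 1.5 on the log2 scale in L-MI replicate 5, a comparison made after the values of Mmp13 and Mmp9 were seen. Beside these they were Bglap (osteocalcin), Ibsp (bone sialoprotein), Spp1 (osteopontin) and Acp5, the acid phosphatase that marks osteoclasts. Bglap read 9.44 in this heart and at most 7.14 in any other. Ibsp read 8.56 and at most 6.38, Spp1 10.31 and at most 8.34, and Acp5 8.31 and at most 6.46. Mmp9, Mmp13 and Acp5 are known from osteoclasts and growth cartilage, and Bglap and Ibsp from bone-forming cells. Which cells these transcripts came from in the heart was not tested. The same rule gave 2 transcript clusters in L-MI replicate 1, 1 in M-MI replicate 3 and 0 in each of the other 20 LV arrays, with no member among them. In L-MI replicates 2 and 4, which were also above the sham range for Mmp13 and Mmp9, Ibsp read 6.38 and 5.85 beside at most 5.13 in sham, and Bglap read 6.79 and 7.14 beside at most 6.43. For the 4 hearts L-MI replicates 1 to 4, Spp1 lay between 7.46 and 8.34, above the sham range of 5.99 to 6.78, and Acp5 lay between 6.38 and 6.46 beside 6.13 to 6.29 in sham.

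**Figure D4:**
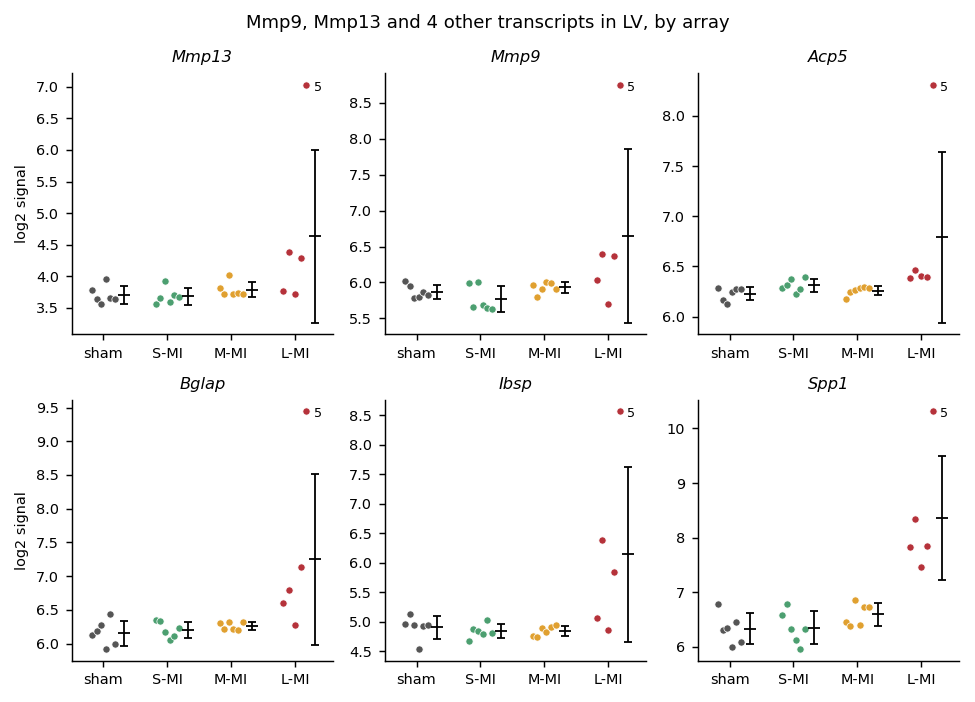
Log2 signal in LV (y axis, a separate range for each gene) of Mmp13, Mmp9, Acp5, Bglap, Ibsp and Spp1 by group; each point is 1 heart, the black bars are mean and SD, and the digit marks L-MI replicate 5. In all 6 genes this heart lies at least 1.5 above every other heart, for example at 7.03 for Mmp13 and 8.75 for Mmp9.

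Of the 18 ADAMs, Adam1a passed the test and was lower in L-MI. Adam1a, a relative of the sperm surface protein fertilin, read 8.22, 8.48, 8.28, 8.001 and 8.22 in L-MI, and 8.60 to 8.86 in sham with a median of 8.73. All 5 lay below all sham hearts. The log2 fold change was -0.49 ± 0.08 (SE), a fold of 0.712 (adjusted p = 0.000434), and the call held without any 1 array.

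Other ADAMs differed by less. Adam23, which lacks protease activity and acts in cell adhesion, differed by 0.36 ± 0.08 (SE; adjusted p = 0.00615), below the fold threshold. It passed without sham replicate 1 (0.39), sham replicate 4 (0.41) or L-MI replicate 3 (0.38). Adam9, a sheddase, read 9.97, 9.96, 10.07, 9.89 and 10.19 in L-MI and 9.74 to 9.83 in sham, a difference of 0.22 ± 0.05 (SE; adjusted p = 0.00457), with all L-MI hearts above the other 18. Both were chosen after their values were seen. Adam17, which releases tumour necrosis factor from the cell surface, differed by 0.08 (adjusted p = 0.597). Of the 18 ADAMs, 10 were among the dimmest 30% of transcript clusters in LV, many of them known from testis, and none of these passed the test.

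No ADAMTS protease passed both thresholds. Adamts2, which removes the amino-terminal propeptide of procollagen, read 8.93, 8.63, 8.77, 8.68 and 8.95 in L-MI against 8.31 to 8.52 in sham, with all L-MI hearts above the other 18. Its log2 difference was 0.36 ± 0.06 (SE; adjusted p = 0.000178), and it passed the fold threshold without L-MI replicate 2 (0.40) or 4 (0.39). The proteases of versican and aggrecan differed by 0.42 for Adamts1, 0.30 for Adamts5 and 0.23 for Adamts4, with adjusted p of 0.349, 0.0758 and 0.136. Of the ADAMTS proteases Adamts1 varied most within the LV groups, from 8.64 to 9.50 in sham and from 8.14 to 9.46 in S-MI, and overlapped between all groups. Without the LV arrays that stood apart, Adamts5, next to Adamts1 on chromosome 11, passed at 0.40 (adjusted p = 0.0418). The ADAMTS-like proteins differed by -0.05 to 0.21 and did not pass.

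Over all members, 9 had all L-MI hearts above all sham hearts (Adam9, Adamts2, Mmp2, Mmp14, Mmp23, Reck, Timp1, Timp2 and Timp3), against 3.1% of all transcript clusters, and 1 had all below (Adam1a), against 3.87%. Above all 18 other hearts lay Adam9, Adamts2, Mmp2, Mmp23, Reck, Timp1 and Timp2, 7 members against 1.09% of all transcript clusters.

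In LV of rats with M-MI or S-MI, no member passed the test against sham. By the same limma model no transcript cluster passed in either comparison (0% of all), and none did without the arrays that stood apart. At an unadjusted p under 0.05 there were 3 members in M-MI and 5 in S-MI, against 7.03% and 6.33% of all transcript clusters. All of these members were higher, as were 3.21% and 3.56% of all transcript clusters. The smallest p in both was that of Adamts14, a procollagen propeptidase related to Adamts2, with log2 differences of 0.16 in M-MI and 0.16 in S-MI beside 0.17 in L-MI (adjusted p = 0.689, 0.665 and 0.0724). The next was Adamts12, a protease that can cut cartilage oligomeric matrix protein. It differed by 0.26 in M-MI and 0.32 in S-MI and by 0.06 in L-MI, and the sham range of 8.42 to 8.94 overlapped all 3 groups. The remaining ones were Mmp21 in M-MI (0.14), and Timp1 (0.34), Adamts4 (0.19) and Mmp14 (0.22) in S-MI. Mmp17 and Adam3a, with the next smallest p in M-MI, differed by 0.14 and -0.11. These comparisons share the sham arrays.

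Timp1 in S-MI was uneven. The 6 S-MI hearts read 9.86, 9.47, 9.23, 9.22, 9.10 and 9.75, so replicates 1, 2 and 6 lay above all sham hearts and the others within the sham range. The mean difference had an adjusted p of 0.697. In M-MI, Timp1 read from 8.99 to 9.62 with a median of 9.13. Timp2 differed by 0.00 in M-MI and 0.07 in S-MI, Mmp2 by -0.02 and 0.09, and Timp4 by -0.16 and -0.05, with none passing.

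Set directly against M-MI, L-MI differed in 6 members, against 2.68% of all transcript clusters, and all 6 were higher, against 1.99%. Without the fold threshold 9 passed, against 7.52%. Timp1 (log2 1.11), Timp2 (0.56), Adam23 (0.50), Mmp2 (0.49), Mmp23 (0.45) and Adamts2 (0.39) passed, with adjusted p between 2.27e-05 and 0.000441. Adamts2 fell below the fold threshold without M-MI replicate 1 or 3 or L-MI replicate 1 or 5 (down to 0.35). Others joined when 1 array was left out. These were Adam1a without M-MI replicate 2 or 5 or L-MI replicate 2 (down to -0.42), Mmp16 without S-MI replicate 1 or L-MI replicate 2 or 3 (up to 0.46), Adamts1 without M-MI replicate 4 (0.84) and Timp4 without L-MI replicate 2 (-0.51). With 1 array left out, the difference of Mmp16 ran from 0.25 to 0.46. The count was 6, of the same genes, without the LV arrays that stood apart, and 5 without L-MI replicate 1.

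Against S-MI, 4 members differed, beside 2.48% of all transcript clusters, with 1.57% higher and 0.911% lower. Without the fold threshold 10 passed, against 7.73%. Timp1 (0.89), Timp2 (0.49) and Mmp2 (0.39) were higher and Adam1a was lower (-0.39). The adjusted p lay between 0.000203 and 0.00537. Timp1 and Timp2 passed without any 1 array. Mmp2 fell below the fold threshold without S-MI replicate 2 or L-MI replicate 1 or 5 (down to 0.34), and Adam1a without S-MI replicate 2, 4 or 5 or L-MI replicate 4 (up to -0.33). Mmp23 passed without S-MI replicate 4 or L-MI replicate 2, 3 or 4 (up to 0.41), Mmp16 without S-MI replicate 4 or L-MI replicate 2 or 3 (up to 0.48), and Adamts1 without S-MI replicate 3 (0.84) or M-MI replicate 4 (0.69). The difference of Mmp16 ran from 0.26 to 0.48 with 1 array left out. Adamts7 passed, lower, without S-MI replicate 3 (-0.39) or L-MI replicate 1 (-0.41), Timp4 without M-MI replicate 5 (-0.46) or L-MI replicate 2 (-0.61), and Mmp9 without L-MI replicate 3 (1.12). Without the LV arrays that stood apart, 6 members passed, all higher. Timp1, Timp2 and Mmp2 were among them, Mmp16, Mmp23 and Reck joined, and Adam1a was lost. Without L-MI replicate 1, 4 passed, with Adamts7 in place of Mmp2.

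In PBMCs of rats with L-MI, no member passed the test against sham, where the call was looser than in LV and asked for 1.2-fold or more and an unadjusted p not above 0.05 (limma, 11 arrays). Of all transcript clusters 0.924% passed, and 3.77% had an unadjusted p under 0.05, again with 0 members. Without L-MI replicate 1 no member passed either. The median log2 fold change of the members was 0.01. The smallest unadjusted p was 0.0979, for Mmp1 (-0.11, limma). Without L-MI replicate 2, Adamts14 (0.39) and Mmp9 (0.30) passed, and without sham replicate 6, Adam6 (-0.40) did. L-MI replicate 2 had the highest erythroid mean of the PBMC arrays (13.19). The part of the cell mixture in these calls was not tested. Mmp1 and Adam6 are named after their values were seen.

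Of the members that passed in LV, none passed in PBMCs, and the intervals differ in width. Timp1 read 7.72, 7.51, 7.55, 7.05 and 7.25 in L-MI and 6.91 to 7.66 in sham (log2 difference -0.01, 95% confidence interval -0.32 to 0.29). Mmp2 differed by 0.02 (95% confidence interval -0.11 to 0.15) and Mmp14 by -0.02 (-0.12 to 0.08), whereas the interval of Timp2 ran from -0.27 to 0.50. Mmp8 read 5.51, 6.66, 6.88, 5.63 and 5.89 in L-MI and 5.52 to 6.36 in sham, so replicates 2 and 3 lay above the sham range and the others did not.

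The largest difference of a member in PBMCs was that of Timp3, at 0.34 (95% confidence interval -0.18 to 0.86). Timp3 read 10.53, 9.85, 9.42, 9.50 and 10.36 in the L-MI samples and 8.86 to 10.03 in sham. The mean of 3 platelet markers was 12.80, 12.01, 12.25, 12.11 and 12.71 in the same L-MI samples and 11.65 to 12.68 in sham. L-MI replicates 1 and 5 were the highest in both, and sham replicate 4 the lowest in both. Adamts3, a procollagen propeptidase named after its values were seen, was also highest in L-MI replicate 1 (9.61) and lowest in sham replicate 4 (7.65). In L-MI replicate 5, however, Adamts3 read 8.82, below sham replicates 3 (9.17) and 5 (8.84). The part of platelets in these values was not tested.

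Whether the difference between L-MI and sham was unequal in the tissues was tested as an interaction (22 arrays, adjusted p not above 0.05). For 6 members the L-MI effect differed between LV and PBMCs, against 2.55% of all transcript clusters. The effect in LV minus that in PBMCs was 1.25 for Timp1, 0.46 for Mmp2, 0.44 for Mmp14, 0.41 for Mmp23, 0.33 for Adamts2 and -0.53 for Adam1a. Timp1, Mmp2, Mmp23 and Adam1a passed without any 1 array. Mmp14 did not without LV L-MI replicate 1 or 4, PBMC sham replicate 2 or 5 or PBMC L-MI replicate 1 or 3 (adjusted p up to 0.0596), nor Adamts2 without LV L-MI replicate 1 or 5 or PBMC L-MI replicate 2 (up to 0.0635). For Timp2 the difference was 0.44 (adjusted p = 0.357) and for Timp4 -0.58 (adjusted p = 0.0801), and Timp4 passed without LV sham replicate 3 (-0.66) or LV L-MI replicate 2 (-0.74). Adamts7 passed without LV L-MI replicate 1 (-0.32) and Adamtsl3 without LV L-MI replicate 4 (0.32). Without L-MI replicate 1 of both tissues 5 members passed. Which arrays of the tissues share a rat is not stated.

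**Figure D5:**
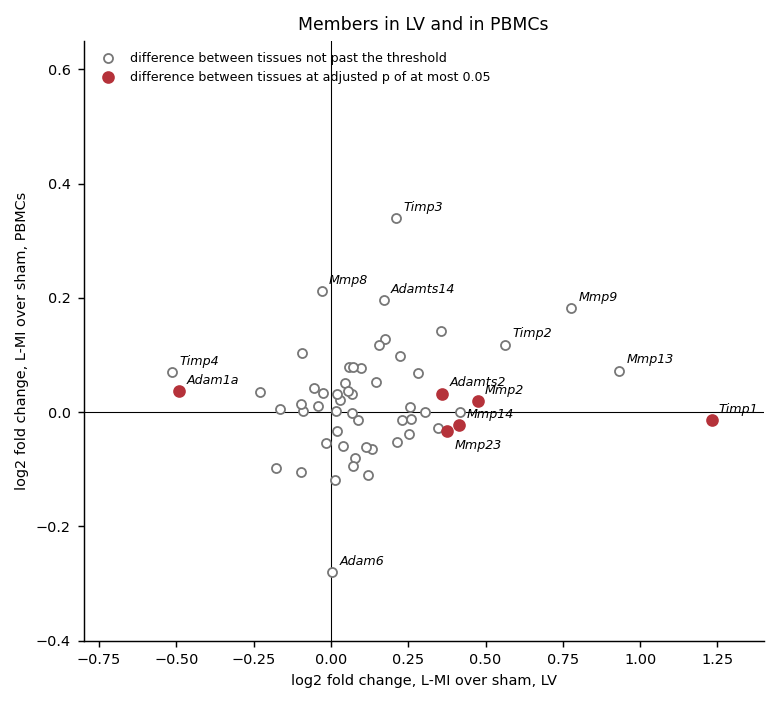
Log2 fold change of L-MI over sham in PBMCs (y axis) against that in LV (x axis) for the 58 members; filled red points are the 6 whose L-MI effect differed between the tissues at an adjusted p of at most 0.05. Timp1 lies at 1.23 in LV and -0.01 in PBMCs, and Timp3 has the largest difference in PBMCs at 0.34.

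Genes that act with the members were followed in lists, whose counts stand beside the 3.22% of all transcript clusters that passed in LV of L-MI and the 0.924% in PBMCs. Of 24 measured regulators, 3 rose and 1 fell in LV of L-MI. The receptor Lrp1, which takes up MMPs and TIMPs from the matrix, rose by 0.67, the procollagen proteinase enhancer Pcolce by 0.60 and Fbln1, a matrix cofactor of Adamts1, by 0.59. The tetraspanin Tspan12, a partner of Adam10, fell by 0.48 in LV (adjusted p = 0.000586) and by 1.64 in PBMCs (unadjusted p = 0.00168, limma; adjusted p = 0.9997), where it was the sole regulator that passed. The median of this list was 0.06 in LV.

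Of 14 other proteases of matrix, 4 rose in LV of L-MI, the cathepsins Ctsk (1.06) and Ctss (0.84), the procollagen C-proteinase Bmp1 (0.43) and the fibroblast protease Fap (0.39), and neprilysin (Mme) fell by 0.52. Fap and Mme are named because they passed, after their values were seen. Cathepsin B (Ctsb) differed by 0.29 (adjusted p = 0.000485), below the fold threshold, and the median of this list was 0.00. Of 19 matrix substrates, 13 rose and none fell, with a median of 0.57. Among them were fibronectin (Fn1, 1.56), fibrillin-1 (Fbn1, 1.17), the proteoglycan biglycan (Bgn, 1.15) and versican (Vcan, 1.15), a substrate of Adamts1. Of 24 cell surface proteins known to be shed, only the receptor Axl passed (0.53), a share near that of all transcript clusters, and the median was 0.17. Another 6 passed the adjusted p but not the fold threshold. They were App (0.23), the hyaluronan receptor Cd44 (0.37) and the tumour necrosis factor receptor Tnfrsf1a (0.23), and, named after their values were seen, Cdh2 (0.20), Sdc1 (0.25) and Hbegf (0.27). In PBMCs no gene of these last 3 lists passed.

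Markers of other cell types moved in the same hearts. All 7 macrophage markers rose in LV of L-MI, and their mean level lay at 8.67 to 9.32 in L-MI and 8.10 to 8.37 in sham. Of 7 fibroblast markers 4 rose (mean level 9.57 to 10.28 and 8.90 to 9.15). They were Postn, Col1a1, Col1a2 and Lum, and Postn had the largest difference of the 7. Col1a1, Col1a2 and Lum are also in the list of matrix substrates. Dcn passed the adjusted p but not the fold threshold. Pdgfra (0.132, adjusted p = 0.464) and Tcf21 (0.119, adjusted p = 0.519) passed neither, so the mean level does not stand for all 7 markers. Among 6 monocyte markers, 2 of which are also macrophage markers, 4 rose (Cd14, Cd68, Csf1r and Lyz2). Ccr2 and Fcnb, the remaining monocyte markers, did not pass. Ccr2 differed in the opposite direction (-0.31, adjusted p = 0.125), and Fcnb differed by 0.06 (adjusted p = 0.833). Of 5 smooth muscle markers 2 rose. Of 3 erythroid markers 1 fell. None of 7 neutrophil markers passed, and their mean level was 4.99 to 5.19 in L-MI and 5.00 to 5.13 in sham. The mean of the cardiomyocyte markers was 12.86 to 12.95 in L-MI and 12.99 to 13.01 in sham, so all L-MI hearts lay below all sham hearts. None of the 7 passed. Of them Myh6 (-0.29, adjusted p = 0.00472), Ryr2 (-0.13, 0.0321) and Tnni3 (-0.12, 0.0356) passed the adjusted p but not the fold threshold. None of 5 endothelial markers passed, but their mean level was 9.77 to 9.842 in L-MI and 9.843 to 10.01 in sham, so all L-MI hearts lay below all sham hearts. Among them Tek (-0.17, adjusted p = 0.0393) passed the adjusted p but not the fold threshold. No marker of T cells, B cells, NK cells or platelets passed in this comparison. The part of these cell types in the changes of the members was not tested.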

How the data were processed

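Hearts and PBMCs of the rats described above were profiled on Affymetrix Rat Gene 1.0 ST arrays, and the authors deposited normalised log2 signals made with RMA and Partek, per the submitters' notes, whose versions are not given in the sources used here. No source gives the base of the logarithm, and 2 was assumed from the range of the values. Symbols came from the platform annotation. A member with several transcript clusters was taken from that with the highest mean in each tissue. The members and gene lists were chosen with earlier results of these data known. Models were fitted with limma 3.58.1 in R 4.3.3 to all 29214 transcript clusters, and p was adjusted over all of them. LV calls needed a fold of 1.3 and an adjusted p of 0.05, and PBMC calls a fold of 1.2 and an unadjusted p of 0.05. Nothing says which arrays share a rat, so p-values measure the spread between these samples only. Named were the members called, the TIMPs and Reck, members well known in heart or matrix, the 5 smallest p in M-MI and in S-MI, and of each gene list the 4 smallest p. Code was tested on simulated data. Alternatives were the groups fitted, variance model, array weights, centring, dim transcript clusters, thresholds, replicate block and arrays left out. Motifs were searched in 33469 RefSeq promoters (GRCr8) of the same length, which include 38 members. Figures used matplotlib 3.10.9.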

Additional observations from a re-analysis of the deposited data

Results flagged for a closer look

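In 12 of 150 groups of named members (8%), 1 array lay far from the rest of its group, and chance does this in about 1 in 20 groups. In LV, L-MI replicate 5 stood high for Mmp13 at 7.03 (nearest 4.38) and Mmp9 at 8.75 (nearest 6.40). Mmp13 was also high in S-MI replicate 3 at 3.93 (nearest 3.70) and M-MI replicate 3 at 4.03 (nearest 3.82), both far below L-MI replicate 5. Adam17 was high in M-MI replicate 6 at 9.16 (nearest 8.99) and Adamts12 low in M-MI replicate 5 at 8.40 (nearest 8.97). Mmp2 was low in sham replicate 2 at 10.055 (nearest 10.23), and Reck in sham replicate 5 at 7.25 (nearest 7.35). In PBMCs, Timp1 was low in sham replicate 6 at 6.91 (nearest 7.39), as was Mmp21 at 5.72 (nearest 5.80). Adamts5 was high in L-MI replicate 3 at 5.75 (nearest 5.50), and Mmp2 low in sham replicate 2 at 6.64 (nearest 6.71).

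The difference between L-MI and sham was unequal in LV and PBMCs for 6 members by the limma interaction. It was larger in LV by 1.25 ± 0.19 (SE) for Timp1, 0.46 ± 0.10 for Mmp2, 0.44 ± 0.11 for Mmp14, 0.41 ± 0.09 for Mmp23 and 0.33 ± 0.08 for Adamts2, and for Adam1a it was -0.53 ± 0.11. The adjusted p ran from 0.000544 to 0.0300.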

How the results depend on the processing

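Of 868 values of single members for L-MI against sham in LV, 831 kept their side of the threshold under the alternatives, 19 lost it, 18 gained it and 0 calls reversed. In PBMCs 538 of 540 kept it and 2 gained it. Without a fold threshold, 13 members passed in L-MI against sham and 10 in L-MI against S-MI, and at a fold of at least 1.5 1 member (Timp1) passed in each comparison of L-MI with sham, M-MI and S-MI. With 1 array left out, the count ran from 4 to 9 against sham, 5 to 9 against M-MI, 2 to 7 against S-MI, 0 to 2 in PBMCs and 5 to 7 for the difference between tissues, and it was 0 throughout for M-MI and S-MI against sham. Timp4 also missed the adjusted p when only sham and L-MI were fitted (0.0745) and without variance moderation (0.0536). Without the 4 LV arrays that stood apart, a setting added after the data were seen, Timp4 missed it too (0.0994). Replicate numbers were not used to pair samples in the main tests. Correlations between arrays were taken with the level of each transcript cluster removed. Arrays with the same number in different groups had a median of 0.00732 over 33 pairs in LV (-0.263 to 0.261) and 0.0403 over 5 in PBMCs. For arrays with other numbers the medians were 0.000695 in LV and -0.0236 in PBMCs. Between LV and PBMC arrays of the same group and number the median was 0.0106 over 11 pairs (highest 0.139), beside -0.00189 for other numbers. These values cannot settle which arrays share a rat. With the replicate block, 5 members passed against sham, with Timp4 lost (adjusted p = 0.0787), 7 against M-MI, 4 against S-MI, 1 in PBMCs (Adam6) and 4 for the difference between tissues. Of the members, 21 in LV and 24 in PBMCs were among the dimmest 30% of transcript clusters, where small differences may not be detectable.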
